A study of Mus musculus with 5 samples.

Results

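Csf1r, Cd68, Nckap1l, Clec10a and Clec4e are genes of macrophages and other myeloid cells, and their levels were followed over the 5 arrays of a study of heart muscle differentiation from mouse embryonic stem cells (ESCs). Members were all probes whose gene symbol, ignoring case, was one of these names, which gave 1 probe for each gene, 5 genes of 17742 named on the arrays. The genes were chosen by their differences between these same arrays, so those differences describe the choice and support nothing further. No test was made on them.

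The study asked what knockdown of the long non-coding RNA Linc1405 does during differentiation, and every array carried total RNA of the ESC line 46C or of cells grown from it. ESCs at day 0 were of control genotype and grew on a feeder layer, taken away before the harvest, with 15% fetal bovine serum and LIF at 1000 U/ml. At day 4 the control cells and the Linc1405 knockdown cells, both called mesoderm by the labels, were in serum-free N2 and B27 medium. That medium held Bmp4 (0.2 ng/ml), Activin A (5 ng/ml) and VEGF (5 ng/ml). At day 10 the control and knockdown cells, both called cardiomyocytes, were in StemCell Pro-34 medium, to which bFGF (10 ng/ml), VEGF (5 ng/ml) and FGF10 (25 ng/ml) had been added. The knockdown samples carry the names MES_1405KIpA and CM_1405KIpA, and neither their meaning nor the number of clones is given in the sources used here. The level of Linc1405 itself was not analysed here.

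Each group had 1 array, so the spread between cultures is unknown, no p-value is given, and precision is limited by the number of arrays. Median intensity as deposited ran from 344 to 745 between arrays, and quantile normalization brought the arrays to 1 distribution. Intensities under a floor of 100, a log2 value of 6.64, were set to it, and where 1 array of a pair lay at this floor the difference is a bound. A gene was called higher or lower where the difference was at least 2-fold and its brighter array reached the 50th percentile, a log2 intensity of 9.16. Probe error was taken from genes with several probes, as a between-probe SD of the log2 difference. It leaves out differences between cultures. The labelled cell types were checked against marker lists. The summed intensity of 8 measured pluripotency genes was 672257 in ESCs and at most 23649.6 elsewhere, that of 11 mesoderm genes was highest in control cells at day 4 (114123), and that of 10 cardiomyocyte genes was highest in control cells at day 10 (536475).

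Macrophages are phagocytes that arise from blood progenitors, enter organs early in embryonic life and remain there, the heart included. Their survival and growth depend on the receptor tyrosine kinase CSF1R, which binds the ligands CSF1 and IL-34, and they recognise sugars and lipids of microbes and dying cells through C-type lectin receptors. The transcription factor PU.1, the product of Spi1, is required to form them.

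Promoter sequence was available for 2 of the 5 genes, Cd68 and Clec4e, and is shown because their levels ran differently over the arrays. The 250 bases before each start (RefSeq, build GRCm38.p6) were searched on both strands for GAGGAA, a core of the type bound by PU.1, and TGAGTCA, the type bound by AP-1, and matches on either strand are in capitals. The Cd68 stretch is chr11:69666171-69666420 and the Clec4e stretch is chr6:123289872-123290121, both on the minus strand and printed 5′ to 3′ as the gene reads.
Cd68: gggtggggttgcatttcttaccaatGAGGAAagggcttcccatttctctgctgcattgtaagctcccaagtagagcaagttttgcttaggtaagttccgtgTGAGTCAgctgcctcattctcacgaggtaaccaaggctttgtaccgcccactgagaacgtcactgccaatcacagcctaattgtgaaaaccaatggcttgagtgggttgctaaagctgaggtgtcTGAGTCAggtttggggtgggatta
Clec4e: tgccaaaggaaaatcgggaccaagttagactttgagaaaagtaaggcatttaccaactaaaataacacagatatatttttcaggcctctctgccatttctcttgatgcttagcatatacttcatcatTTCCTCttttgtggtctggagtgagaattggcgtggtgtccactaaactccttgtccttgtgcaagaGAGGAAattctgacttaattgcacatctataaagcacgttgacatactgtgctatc
Cd68 held GAGGAA 1 time, at bases 225 to 220 before the start, and TGAGTCA 2 times, at bases 149 to 143 and 24 to 18. Clec4e held GAGGAA 2 times, on the gene's strand at bases 56 to 51 and on the other strand at bases 123 to 118, and TGAGTCA 0 times. Of 27025 mouse promoter windows of the same length, 23.1% held GAGGAA and 4.43% held TGAGTCA. These matches are letters in a window, and binding was not measured.

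Csf1r, the receptor for CSF1 and IL-34, was seen mainly at day 10. Its log2 intensity was 8.37 in ESCs, at the floor of 6.64 in control cells at day 4, 6.81 in knockdown cells at day 4, 11.62 in control cells at day 10 and 10.24 in knockdown cells at day 10. The deposited intensities behind these values were 382, 105, 165, 2207 and 1124. Both day 10 arrays stood above the others, and Csf1r reached the intensity filter on those arrays and on no other. The day 4 pair lay within the between-probe SD of each other.

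Cd68, a glycoprotein of late endosomes and lysosomes that is widely used to stain macrophages, was brightest in ESCs. Its log2 intensity was 13.33 in ESCs, 9.99 and 9.66 in control and knockdown cells at day 4, and 12.16 and 11.30 in control and knockdown cells at day 10. The deposited intensities were 8963, 1152, 1033, 3186 and 2527 in the same order. From high to low the order was ESCs, control at day 10, knockdown at day 10, control at day 4 and knockdown at day 4. After normalization each neighbouring pair lay further apart than the between-probe SD. The last step was the smallest, at -0.33 in knockdown minus control with an SD of 0.208. With values as deposited it was -0.16, or -0.36 relative to the median of all genes.

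Nckap1l encodes Hem1, the blood-cell subunit of the WAVE complex, which drives branching of actin filaments at the edge of moving cells. Its log2 intensity was 10.58 in ESCs, 9.77 and 8.03 in control and knockdown cells at day 4, and 10.90 and 9.83 at day 10. The deposited intensities were 1482, 993, 356, 1317 and 809. The knockdown array at day 4 was the low one, and no neighbours in rank among the other 4 arrays were further apart than the between-probe SD. The day 10 arrays are not neighbours, since ESCs fall between them. They did differ by more, at -1.07 in knockdown minus control with a between-probe SD of 0.272.

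Clec10a, a C-type lectin of macrophages and dendritic cells, was near the filter or below it on every array. Its log2 intensity was 8.78 in ESCs, 8.58 and 7.33 in control and knockdown cells at day 4, and 9.29 and 8.22 at day 10. The deposited intensities were 495, 449, 229, 380 and 219. Clec10a reached the filter through the control array at day 10 alone, just above the limit of 9.16, and again the knockdown array at day 4 stood below the others.

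Clec4e encodes Mincle, a C-type lectin that senses mycobacterial glycolipids and a ribonucleoprotein released by dead cells. Its log2 intensity was 12.38 in ESCs, 12.26 and 9.73 in control and knockdown cells at day 4, and 10.56 and 10.58 at day 10. The deposited intensities were 4644, 5520, 1082, 1019 and 1486. ESCs and control cells at day 4 formed a high pair, the day 10 arrays a middle pair, and the knockdown array at day 4 was lowest. Within each pair the values were closer than the between-probe SD.

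**Figure D1:**
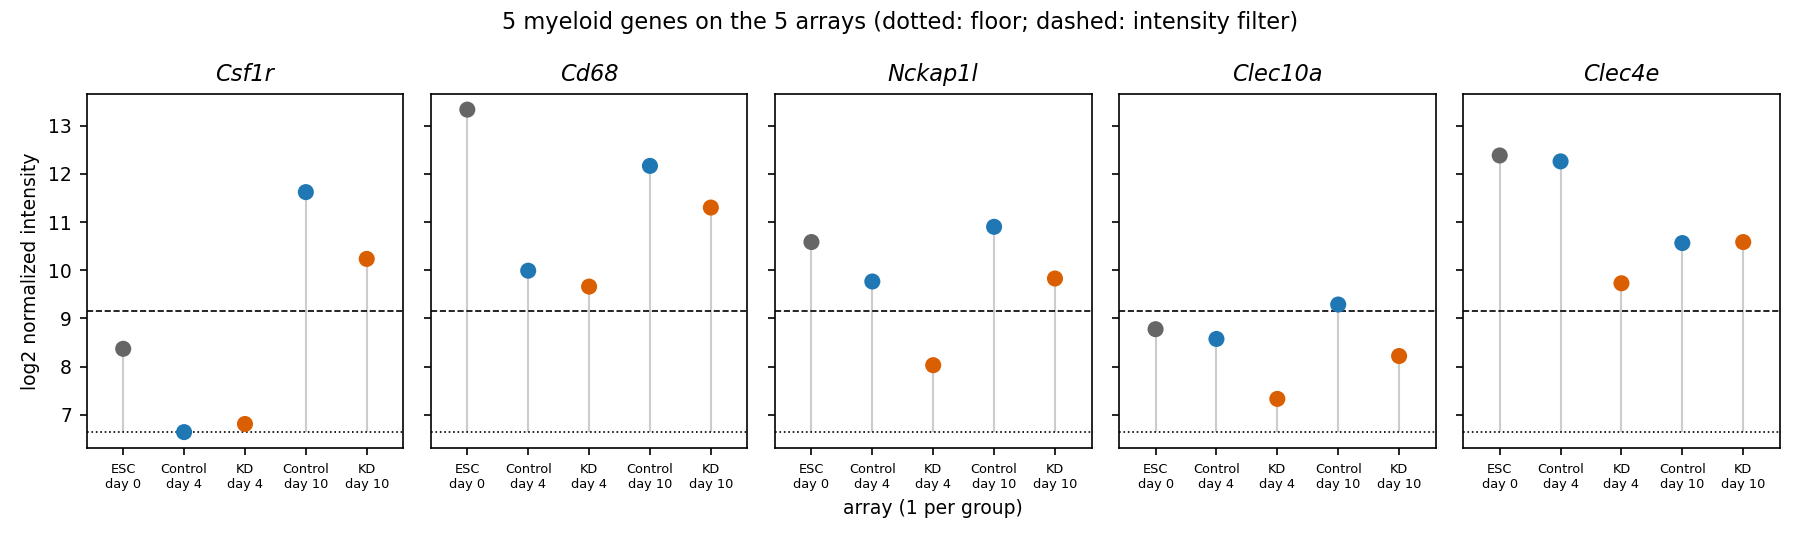
Log2 normalized intensity (vertical axis) of each gene on the 5 arrays (horizontal axis, 1 array per group, KD for Linc1405 knockdown), with the floor of 6.64 dotted and the filter of 9.16 dashed. Csf1r is above the filter at day 10 only, and Nckap1l, Clec10a and Clec4e are lowest in knockdown cells at day 4.

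At day 10 the knockdown array was lower than the control array for Csf1r, Cd68, Nckap1l and Clec10a, while Clec4e stood level. Of the 5 genes, all of which passed the filter, 0 were called higher and 3 lower. Over the 10886 genes tested, 2.5% were called higher and 3.61% lower, and since the genes were chosen with this contrast in view nothing is read from the difference. The median of the 5 was -1.07, against 0.00 over all genes.

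The CSF1 receptor gene showed the largest difference of the 5 at day 10, with Csf1r at -1.38 ± 0.272 (between-probe SD, from 1078 genes) on the log2 scale, or 2.61-fold lower. Nckap1l and Clec10a each stood at -1.07, or 2.10-fold lower. Cd68, at -0.86, did not reach 2-fold, and Clec4e stood at 0.02. With intensities as deposited, 0 of the 5 were called lower. The median of all genes was then 0.37, and 1094 genes were called higher and 160 lower, against 272 higher and 393 lower after normalization. Relative to that median the values were -1.34 for Csf1r, -0.70 for Cd68, -1.07 for Nckap1l, -1.16 for Clec10a and 0.18 for Clec4e. The knockdown array at day 10 also had 1050 deposited intensities at or below 0, against 3 on its control, and all 5 genes were above the floor there.

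Several other macrophage genes were lower on the knockdown array of this pair. Of 31 listed macrophage surface and identity genes 27 were measured and 15 passed the filter, of which 7 were called lower and 0 higher, and the median of all measured was -0.36. The lowest was Mpeg1, which encodes the pore-forming perforin-2, at -1.82, although its other probe gave -0.51. It passed the filter through the control array alone (9.68, against 7.86 on the knockdown array). Cx3cr1, the receptor for fractalkine, stood at -1.81, with the control array at 12.09 and the knockdown array at 10.28. The highest was Itgax, the integrin CD11c, at 0.97, short of 2-fold. Further genes called lower, named after their values were seen, were C1qb (-1.72), C1qc (-1.53) and C1qa (-1.21), the chains of complement C1q, and the Fc receptor genes Fcgr3 (-1.41) and Fcer1g (-1.10). As deposited, 2 of the list were called lower and the median was -0.06. Fcgr1 and Cd163 were at the floor on all 5 arrays.

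Genes shared by most white blood cells were lower as well, with 7 of the 10 past the filter called lower, 0 called higher and a median of -1.15 over the 15 measured. Of the 7, Cd44, and Ptprc and Sla, named after their values were seen, passed the filter through the control array alone. Their knockdown levels were 8.73, 8.53 and 8.51. The other probe of Ptprc gave a difference of 0. Cd53, a tetraspanin of leukocytes, stood at -1.87, with its other probe at the floor on both arrays, and Cd44, the hyaluronan receptor, at -1.76. As deposited, 4 were called lower and the median was -0.60.

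Marker lists of other cells moved beside these genes to differing degrees. The summed intensity of the macrophage list was 64935.4 on the control array and 34412.5 on the knockdown array, and that of the pan-leukocyte list was 32142.3 and 15156.6. For cardiomyocyte genes the sums were 536475 and 299615, with 7 of 10 measured genes called lower and 1 higher. For fibroblast genes they were 295580 and 302531, and for endothelial genes 258549 and 281506, with 0 genes called lower in either list. In bulk RNA, fewer cells of a type and less RNA per cell cannot be told apart. The part of these other cells in the myeloid differences was not tested.

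**Figure D2:**
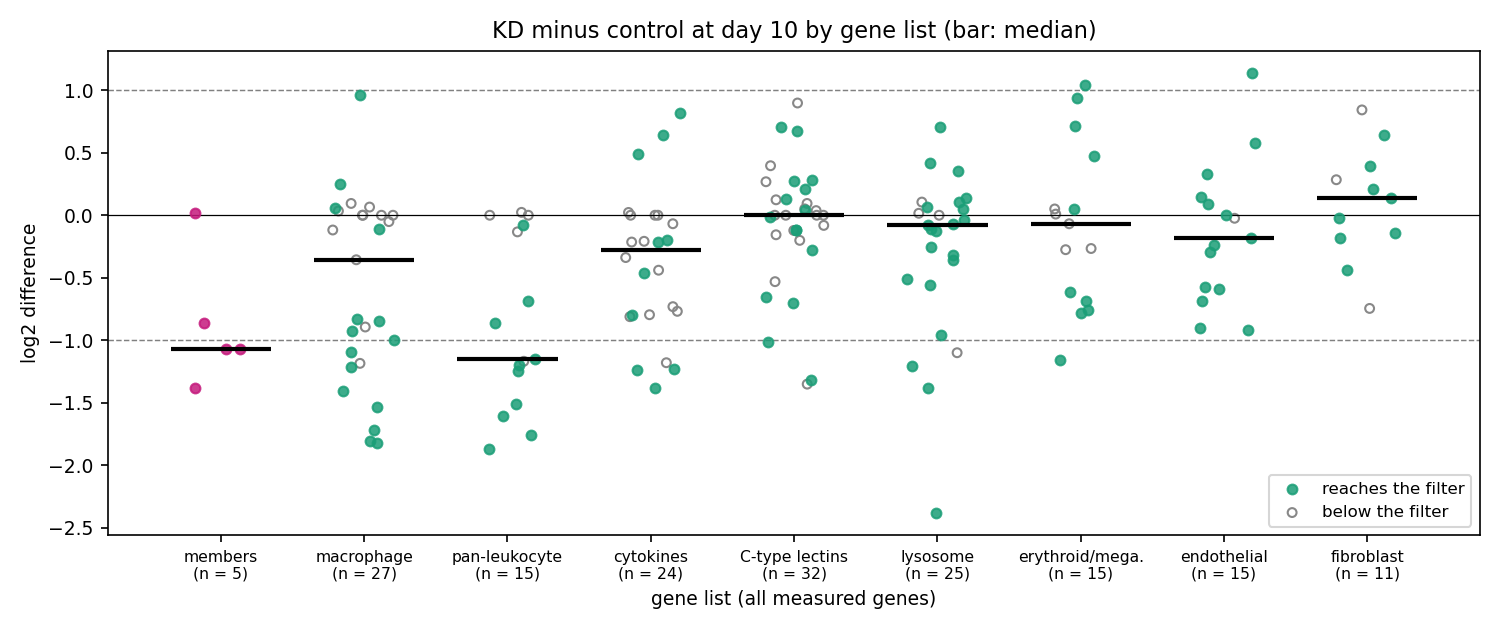
Log2 difference, knockdown (KD) minus control at day 10 (vertical axis), for every measured gene of 8 lists and the 5 chosen genes (horizontal axis), with filled points past the filter, open points below it, bars for medians and dashed lines at 2-fold. The medians are -1.07 for the chosen genes, -0.36 for macrophage genes, -1.15 for pan-leukocyte genes and 0.14 for fibroblast genes.

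At day 4 the knockdown array was lower than the control array for Clec4e, which was level at day 10, and for Nckap1l, which was lower on both days. Cd68 differed by less than 2-fold. Of the 5 genes 3 passed the filter, 0 were called higher and 2 lower, beside 0.804% called higher and 1.47% called lower of 10699 genes tested. The median of the 5 was -1.24, against 0.00 over all genes.

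Clec4e stood at -2.53 ± 0.208 (between-probe SD, from 1035 genes) on the log2 scale at day 4, or 5.76-fold lower, and Nckap1l at -1.74, or 3.33-fold lower. Clec10a, at -1.24, was below the filter on both arrays and was not called. Cd68 stood at -0.33, and Csf1r at 0.17 with its control array at the floor. As deposited, the median of all genes was 0.20, with 135 genes called higher and 118 lower, against 86 and 157 after normalization.

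At day 4 few genes of the myeloid lists were called beside Clec4e and Nckap1l. Of 14 myeloid transcription factors past the filter 2 were called lower and 0 higher. Zeb2, a zinc-finger repressor, went from 11.04 in control cells to the floor in knockdown cells, a difference of -4.40 or beyond, and Tfec, a relative of Mitf, stood at -1.09. Of 12 genes on the CSF1 receptor list past the filter 1 was called higher, the stem cell factor receptor Kit at 1.23, and 0 lower. Among the macrophage genes 7 passed the filter, of which 0 were called higher and 0 lower, with a median of 0.00, and the pan-leukocyte list likewise had 0 called either way. Fcer1g, which encodes the signalling chain that Mincle requires, stood at -0.01, and Card9, an adaptor further down the same pathway, at -0.05. Nckap1, the subunit that takes the place of Hem1 outside blood cells, stood at -0.23, and in its list Wasf3, a WAVE protein, was called lower at -1.17. The summed intensity of the macrophage list was 14549.7 in control and 14335.4 in knockdown cells.

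**Figure D3:**
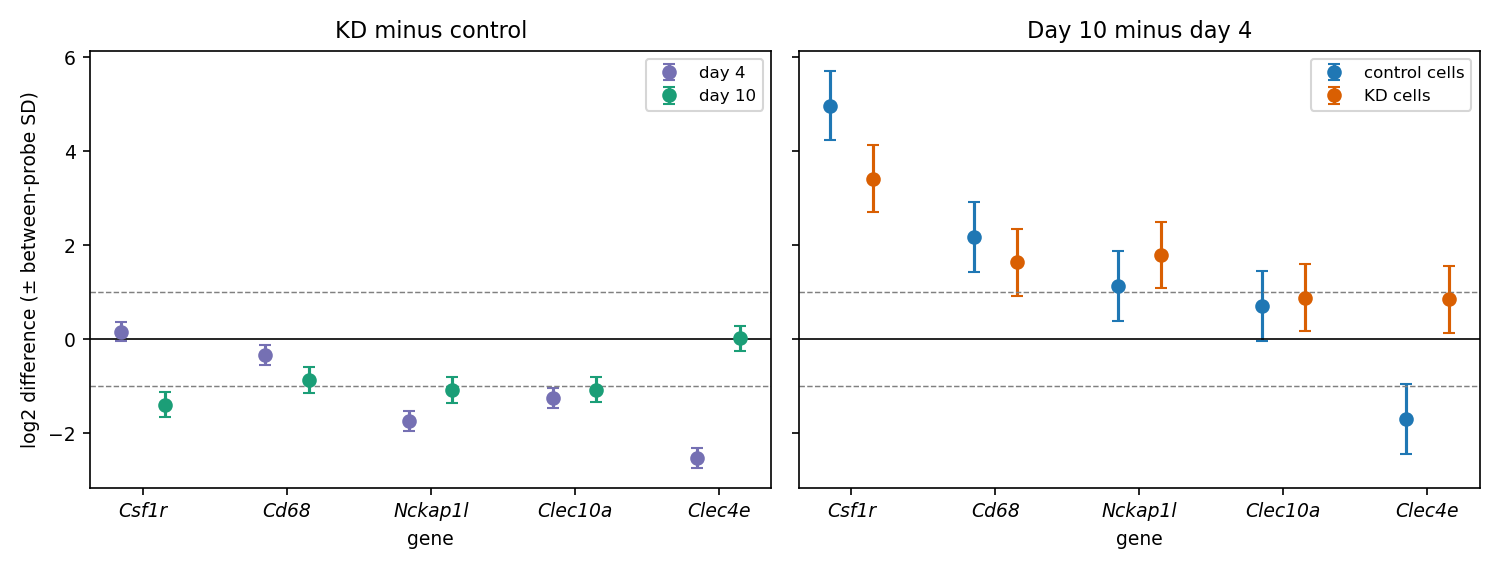
Log2 differences of the 5 genes (horizontal axis) between knockdown (KD) and control at each day (left) and between day 10 and day 4 in each kind of cell (right), where error bars are the between-probe SD and dashed lines mark 2-fold. Clec4e differs most at day 4 (-2.53) and is level at day 10 (0.02), and its course runs down in control cells (-1.69) and up in knockdown cells (0.85).

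Between day 4 and day 10 the control cells gained signal for the receptor, the lysosomal glycoprotein and the actin regulator, and lost signal for Mincle. All 5 genes passed the filter, 3 were called higher and 1 lower, beside 19.1% called higher and 19.4% called lower of 11434 genes tested. After normalization Csf1r was higher by at least 4.98 on the log2 scale, or at least 31.5-fold, since its day 4 array was at the floor. The bound holds for that scaling only. Its day 4 intensity as deposited, 105, was above the floor. The difference was then 4.39, where the median of all genes was -0.72. Cd68 was higher by 2.17 ± 0.743 (between-probe SD, from 1151 genes), or 4.51-fold, and Nckap1l by 1.13, or 2.19-fold. Clec10a stood at 0.71 and was not called. Clec4e stood at -1.69, or 3.23-fold lower.

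The knockdown cells followed a similar course for 3 of these genes, with 4 of 5 past the filter, 3 called higher and 0 lower, beside 18.7% called higher and 18.1% called lower of 11416 genes tested. Csf1r was higher by 3.42, Cd68 by 1.64, or 3.11-fold, and Nckap1l by 1.80, or 3.48-fold. Clec10a stood at 0.89 below the filter, and Clec4e at 0.85. Subtracting the control course from the knockdown course gave -1.55 for Csf1r, -0.53 for Cd68, 0.66 for Nckap1l, 0.17 for Clec10a and 2.55 for Clec4e, differences that were not tested. The control course of Csf1r starts at the floor, so for these arrays -1.55 is a bound, and without the floor the difference would be that size or larger. Probe error, the spread between cultures and the choice of scaling are not covered by this bound.

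Scaling bears on both courses. As deposited, the median of all genes was -0.72 in control and -0.58 in knockdown cells, with 1093 genes called higher and 5484 lower in control and 1408 and 4281 in knockdown cells. After normalization the counts were 2182 and 2214 in control and 2139 and 2062 in knockdown cells. Loess centring of each pair gave 2563 higher and 1601 lower in control, and 2508 and 1496 in knockdown cells. Nckap1l was at 0.41 in control cells with values as deposited and was no longer called, which left 2 of the 5 called higher. Clec10a turned to -0.24 in control and -0.06 in knockdown cells with values as deposited. Scaling to a common 75th percentile moved the median of all genes to -0.11 in control and -0.20 in knockdown cells.

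Macrophage genes were mostly higher at day 10 than at day 4 in control cells, with 13 of 16 past the filter called higher, 2 called lower, and a median of 1.26 over all 27 measured. As deposited, 9 were called higher and 3 lower, and the median was 0.41. C1qb was higher by 6.38, Cx3cr1 by 4.73, C1qa by 4.48 and C1qc by 4.25. Itgax was among those called lower, at -1.26. Of 21 lysosomal genes past the filter 13 were called higher and 0 lower, with a median of 1.07, among them Lamp2, a lysosomal membrane protein of the family to which Cd68 belongs, at 1.95. As deposited, 6 lysosomal genes were called higher and 4 lower, and the median was 0.30. Mitf, a transcription factor of lysosomal genes, stood at 3.81, the protease legumain (Lgmn) at 2.39 and the acid lipase Lipa at 2.19. Endothelial genes (10 higher, 1 lower) and fibroblast genes (8 higher, 0 lower) moved over the same interval, and their part in the myeloid values was not tested. In knockdown cells 10 of 14 macrophage genes past the filter were called higher and 0 lower, with a median of 0.54. Pan-leukocyte genes had 6 of 12 called higher and 2 lower in control cells, with a median of 0.89. In knockdown cells 5 of 9 were called higher and 3 lower, with a median of 0.00.

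Before that, between ESCs and control cells at day 4, Cd68 was the gene that differed. Of the 5 genes 3 passed the filter, 0 were called higher and 1 lower, beside 12.8% called higher and 13.9% called lower of 11293 genes tested. Cd68 stood at -3.34 ± 0.613 (between-probe SD, from 1110 genes), or 10.1-fold lower at day 4. Nckap1l stood at -0.82 and Clec4e at -0.12, both past the filter and neither called. Csf1r and Clec10a were below the filter, at -1.73 and -0.20, and Csf1r was at the floor on day 4. As deposited, the median of all genes was 0.17, with 2291 genes called higher and 1261 lower, against 1447 and 1574 after normalization.

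The ESC array carried other macrophage and lysosomal signal. Of 15 macrophage genes past the filter, 9 were called lower and 1 higher at day 4, with a median of -0.59, and of the lysosomal genes 9 were called lower and 0 higher. C1qa stood at -4.33 and Trem2, a lipid receptor of macrophages, at -3.51. Laptm5, a lysosomal protein of leukocytes, stood at -4.64 and Cd53 at -3.56. Both are on the pan-leukocyte list, whose summed intensity was 41863.5 in ESCs and 9577.7 in control cells at day 4. Bright genes weigh most in such a sum, and Laptm5 stood at 14.90 in ESCs. Of the 9 genes of that list past the filter 3 were called lower and 1 higher at day 4. Over the 15 measured, 10 were below 0 and 3 above, with a median of -0.15. ESCs had grown on feeder cells, and the fibroblast and feeder list summed to 40017.5 in ESCs and 18221.1 in control cells at day 4. Its genes were mixed, with 4 of 7 past the filter called lower and 2 higher at day 4, and a median of 0.00 over all measured. The part of feeder cells in the ESC values was not tested.

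**Figure D4:**
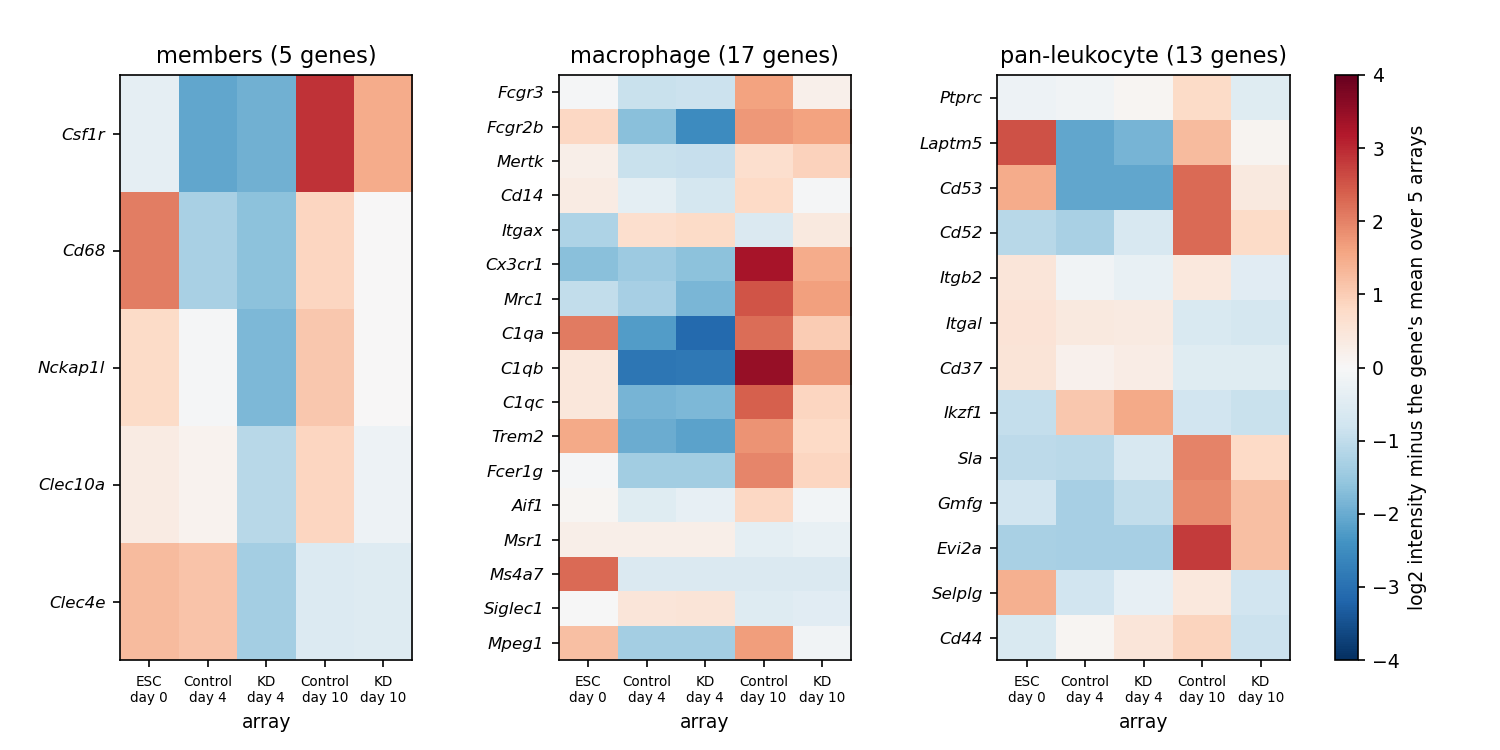
Log2 intensity of each gene minus its own mean over the 5 arrays (colour), for the 5 chosen genes and for macrophage and pan-leukocyte genes that reached the filter, with genes in rows and arrays in columns (KD for Linc1405 knockdown). C1qb, Cx3cr1 and Cd53 are among the genes brighter in control than in knockdown cells at day 10, and Csf1r, chosen on these arrays, shows the same order (11.62 against 10.24). Itgax (10.98 against 11.95) and Mertk (10.94 against 11.19) run the other way.

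The partners of each gene in its pathway differed in how they ran. Of the ligands of the CSF1 receptor, Csf1 stood at 0.30 in knockdown minus control at day 10 and Il34 at 0.05, the latter below the filter with its other probe at the floor. In the list of ligands, related receptors and signalling proteins, 1 of 13 past the filter was called lower and 0 higher at day 10, with a median of -0.06. The one called was Plcg2, a phospholipase of immune receptor signalling, at -1.33. Csf1 was higher by 1.54 at day 10 than at day 4 in control cells.

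Among myeloid transcription factors, 1 of 13 past the filter was called lower and 0 higher in knockdown cells at day 10, with a median of -0.12. Maf, a factor of resident macrophages, stood at -1.18, and Spi1 at 0.44. Spi1 differed little over the control arrays, at 10.80 on day 4 and 10.38 on day 10. Runx1, a factor of blood formation, stood at -3.07 in control cells at day 10 minus day 4, and its other probe gave -2.28. Irf5, a factor of inflammatory macrophages, was higher by 3.85.

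Among WAVE subunits and leukocyte actin regulators, 1 of 16 past the filter was called higher and 1 lower in knockdown cells at day 10, with a median of -0.04. Coro1a, the leukocyte coronin, stood at -1.44 beside Nckap1l, and Wasf1, a WAVE protein prominent in brain, at 1.15. Rac2, the blood-cell Rac GTPase that activates the complex, stood at -0.92, with its other probe at -0.24. Nckap1 stood at 0.20.

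C-type lectins and their adaptors had 2 of 15 past the filter called lower and 0 higher at day 10, with a median of 0.00. The adaptor protease Malt1 stood at -1.32 and Clec4a1, a lectin receptor of macrophages, at -1.02. Mgl2, the close relative of Clec10a, was below the filter, with log2 intensities at day 10 of 6.86 (control) and 6.74 (knockdown), and Clec4d, which pairs with Mincle, was below it at 6.97 and 7.37. Clec10a and Mgl2 are close paralogs, and whether their probes cross-react was not tested. Of the lysosomal genes, 3 of 21 past the filter were called lower and 0 higher, with a median of -0.08. As deposited, 1 was called lower and 1 higher, and the median turned to 0.33. Mitf stood at -2.38 and the protease Ctss at -1.38, while Lamp1 stood at -0.25 and Lamp2 at -0.51. Ctss passed the filter through the control array alone (9.27, against 7.89 on the knockdown array).

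The genes whose pattern over the 5 arrays was most like each of the 5 were found by Euclidean distance between centred log2 values, among 11753 genes. For Csf1r they were Ppp1r3c (0.43), Fam189a2 (0.56), Ldb3 (0.63), Prnp (0.69) and Clu (0.70). Ldb3, a protein of the muscle Z-disc, is also on the cardiomyocyte list. For Cd68 they were Ccdc113 (0.28), Prrc2b (0.35), St3gal5 (0.42), Cd79b (0.46) and Sncg (0.47). For Nckap1l the nearest was Pnck (0.40), followed by Fzd7 (0.81), Lrig1 (0.83), Tafa3 (0.87) and Pde4c (0.89). Among the 5 chosen genes the closest pair was Nckap1l and Clec10a, at 0.89, and the furthest was Csf1r and Clec4e, at 5.42. Csf1r and Cd68 were 3.57 apart. For Clec10a they were Pip5k1b (0.43), Enc1 (0.50), Chrnb1 (0.55), Slc7a8 (0.59) and Wipf3 (0.63), and for Clec4e Htr3b (0.48), Shroom4 (0.60), Scnn1b (0.66), Fezf2 (0.69) and Themis3 (0.71). With 5 arrays, closeness describes these arrays and no more.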

How the data were processed

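Total RNA from 5 cultures, 1 per group as labelled, was amplified, labelled with Cy5 (5 µg, per the labels' protocols) and hybridised to 1-colour arrays. The authors deposited linear probe intensities, and Agilent Feature Extraction 10.7.1.1 is named in the submitters' processing notes. Details of the authors' normalization are not given in the sources used here. Quantile normalization over the 5 arrays was applied, and values were set to a floor of 100 (19.0 to 19.1% of probes) and converted to log2 values. Of 26423 probes, 20377 carried 1 symbol and 6046 were unnamed here. Names were updated with a RefSeq gene table of GRCm38.p6 (18213 current, 2126 by synonym, 38 kept), and the brightest probe stood for each gene. The brighter array of a pair had to reach the 50th percentile (9.16) and the difference 2-fold. No p-value was computed.

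The genes and the 17 lists (297 of 334 genes measured) were chosen with earlier results of these data known. Named genes were the 5 members, the 5 nearest to each, up to 4 highest and 2 lowest per list past the filter, and partners by role; others are marked. The scripts (python 3.11.15, numpy 2.4.6, pandas 2.3.3, statsmodels 0.14.6) were tested on simulated data. Alternatives were values as deposited, a common 75th percentile, loess, floors of 50 and 200, other filters and folds, the mean of probes and, chosen after seeing the data, normalization without the ESC array, and all of these for the lists.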

Additional observations from a re-analysis of the deposited data

Results flagged for a closer look

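Clec4e, which encodes the C-type lectin Mincle, ran in opposite directions between day 4 and day 10 in the 2 kinds of cell. In control cells its day 10 minus day 4 difference was -1.69 on the log2 scale, from 12.26 to 10.56. In Linc1405 knockdown cells it was 0.85, from 9.73 to 10.58, which is short of 2-fold and little more than the between-probe SD of 0.709. As deposited this rise was 0.46, where the median of all genes was -0.58. Each value compares 1 array with 1 array, and the difference between the courses was not tested.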

How the results depend on the processing

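Under other settings, 155 differences of the 5 genes stayed within the between-probe SD and 15 moved. Of the counts of called genes, 88 stayed within 1.5 times the main count and 10 did not. Part of what stayed could not move. Each of the 5 genes has 1 probe, so the mean of probes repeats their main values and counts. The floors of 50 and 200 change only intensities below 200. No called difference changed sign. Clec10a, not called, did so in both courses as deposited (-0.24 and -0.06), and Clec4e within the between-probe SD, in control day 4 against ESCs as deposited (0.25) and at day 10 after loess (-0.01). With a filter at the 75th percentile, the control course had 1 gene called higher (3 in the main setting) and the knockdown course 0 (3), while knockdown against control had 0 called lower at day 10 (3) and 1 at day 4 (2). With a 4-fold threshold, the knockdown course had 1 gene called higher, the control course 0 called lower (1), and knockdown against control 0 lower at day 10 and 1 at day 4. In these settings fewer genes can be called by construction. With no filter, 2 genes were called lower in control day 4 against ESCs (1). With intensities as deposited, 0 were called lower at day 10 (3), where the median of all genes was 0.37. Smaller shifts, within 1.5 times, were 2 called higher in the control course at 4-fold and as deposited (3), 4 in the knockdown course after loess (3), 3 called lower at day 4 with no filter (2) and 2 at day 10 after scaling to a common 75th percentile (3). Of the list values 566 stayed and 94 moved. No paired analysis was possible because each group had 1 array and the groups share only 1 replicate number. Genes dim on all arrays are limited by signal over background, Clec10a above all.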

Other observations

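Chemokine, cytokine and platelet genes were measured beside the myeloid genes. Of 10 genes of the chemokine and cytokine list past the filter, 3 were called lower and 0 higher in knockdown minus control at day 10, with a median of -0.28 over the 24 measured. Ccl6 stood at -1.38 and Ccl4 at -1.24, both ligands that attract white blood cells, and Ccl3, named after its value was seen, at -1.23. Ccl6 passed the filter through the control array alone (10.20, against 8.82 on the knockdown array). As deposited, 1 gene of this list was called lower and 3 higher, and the median was 0.00. Between day 4 and day 10 in control cells 7 of 12 were called higher and 1 lower, and as deposited 6 and 5. Ccl3 was higher by at least 6.60 from the floor, and Cxcl12, which holds blood progenitors in their niche, by 5.38.

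Pf4, platelet factor 4, was named after its values were seen. It stood at 10.18 in ESCs, was at the floor on both day 4 arrays and reached 13.31 (control) and 12.15 (knockdown) at day 10, which differ by -1.16. The erythroid and megakaryocyte list to which it belongs had 1 gene called higher and 1 lower in knockdown minus control at day 10, with a median of -0.07 over the 15 measured. From day 4 to day 10 most called genes of this list were lower, unlike Pf4. In control cells 4 of 12 past the filter were called higher and 7 lower, with a median of -0.23. In knockdown cells 2 of 12 were called higher and 7 lower, with a median of -0.82. Among granulocyte and mast cell genes S100a8, a calcium-binding alarmin, stood at 1.63 and Mmp9, a gelatinase, at -1.95, and 5 of the 20 measured passed the filter.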
